A study of Rattus norvegicus with 8 samples.

Results

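The Wnt ligands, Frizzled receptors and Wnt modulators were examined in primary rat nucleus pulposus (NP) cells, which make up the soft center of the intervertebral disc, with and without knockdown of Sirt6. Members were taken by name from the table of the authors' own comparison: every gene whose name is Wnt, Fzd, Sfrp, Dkk or Rspo followed by a digit, together with a fixed set of co-receptors, secretion factors, cytoplasmic transducers and nuclear factors of the pathway. The rule found 40 genes among the 13612 rows of that table and the 32975 rows of the count table, and 39 of them had enough reads to be tested. Axin1 and Znrf3, which the rule also lists, had no row under those names and were not analysed here. The rule uses names alone, but the table lists only rows whose counts sum to more than 80.

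Cells came from the discs of adult Sprague Dawley rats and were kept in DMEM with serum. Sirt6-KD cells received lentivirus carrying a mixture of ShSirt6 clones, so that no single hairpin can be told apart from another, and Sirt6-Ctrl cells received a control hairpin virus (ShCtrl). Each group had 4 RNA-seq libraries (Sirt6-Ctrl: S1 to S4, Sirt6-KD: S5 to S8), and the series describes cells from 4 rats compared with controls matched to them. The labels do not say which control library belongs with which knockdown library, so the tests are unpaired and any spread between rats stays in their errors. Both groups therefore share transduction and culture. In bulk RNA, fewer cells of a type and less RNA per cell cannot be told apart.

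Wnt proteins are secreted, lipid-modified ligands that bind Frizzled receptors. With the co-receptors Lrp5 or Lrp6, a bound Wnt acts through Dishevelled to stop the destruction of β-catenin, which then enters the nucleus and joins Tcf and Lef factors at target genes; with Ror or Ryk receptors, Wnts act through branches that do not need β-catenin. Sfrp and Dkk proteins hold this signal back outside the cell, and R-spondins raise it by keeping Frizzled receptors on the surface. In the disc, the pathway is studied for its part in NP cell identity and in matrix turnover.

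To give the sequence context of members whose RNA levels are described next, the promoter windows of Wnt5a, Wnt11, Porcn and Axin2 are shown. Wnt5a, Porcn and Wnt11 are the called members that make, or are, the ligand, and Axin2 is the textbook feedback target of β-catenin. Each window runs from 250 bases before to 50 bases after the annotated start, 5′ to 3′ on the strand of the gene, from RefSeq on the GRCr8 assembly, which is not the Rnor_6.0 build named in the submitters' processing notes. Capitals mark a match, on either strand, to a TCF/LEF motif (CTTTGAT or CTTTGTT), an AP-1 motif (TGANTCA), a GC box (GGGCGG) or a TATA box (TATAAA).
Wnt5a (chr16:3703415-3703714, plus strand): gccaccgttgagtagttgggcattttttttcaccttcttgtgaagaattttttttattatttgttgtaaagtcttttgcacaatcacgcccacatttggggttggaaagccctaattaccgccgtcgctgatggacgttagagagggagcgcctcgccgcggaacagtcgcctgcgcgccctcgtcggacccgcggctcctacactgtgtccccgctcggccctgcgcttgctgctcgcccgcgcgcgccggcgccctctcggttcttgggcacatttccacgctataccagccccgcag
Wnt11 (chr1:162549110-162549409, plus strand): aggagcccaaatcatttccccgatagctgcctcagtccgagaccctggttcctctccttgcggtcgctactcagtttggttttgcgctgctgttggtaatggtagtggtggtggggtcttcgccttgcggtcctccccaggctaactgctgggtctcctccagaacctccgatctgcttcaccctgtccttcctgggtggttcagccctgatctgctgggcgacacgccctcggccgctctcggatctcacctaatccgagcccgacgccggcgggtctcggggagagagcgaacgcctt
Porcn (chrX:16957584-16957883, plus strand): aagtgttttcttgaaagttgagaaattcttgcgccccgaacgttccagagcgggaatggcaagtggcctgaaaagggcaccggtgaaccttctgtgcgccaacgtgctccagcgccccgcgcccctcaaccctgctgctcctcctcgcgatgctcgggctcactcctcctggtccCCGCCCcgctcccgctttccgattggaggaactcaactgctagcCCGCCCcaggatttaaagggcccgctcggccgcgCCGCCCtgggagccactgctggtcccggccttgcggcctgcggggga
Axin2 (chr10:94398535-94398834, plus strand): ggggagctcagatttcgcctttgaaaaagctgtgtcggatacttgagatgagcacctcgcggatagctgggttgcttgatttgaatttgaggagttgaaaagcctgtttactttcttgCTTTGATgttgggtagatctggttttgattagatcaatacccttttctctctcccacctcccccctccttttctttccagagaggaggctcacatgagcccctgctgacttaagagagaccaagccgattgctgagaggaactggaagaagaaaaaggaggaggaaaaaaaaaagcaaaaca
The Axin2 window held 1 TCF/LEF match, 132 bases before the start. The Porcn window held 3 GC boxes, at 75 and 31 bases before and 3 bases after the start, while the Wnt5a and Wnt11 windows held none of the motifs. Windows were given for 30 members, with 31 windows in all. Dkk3, Lrp6, Dkk4, Lrp5, Fzd2, Sfrp4, Fzd6, Wnt5b, Fzd3 and Wnt10b had none.

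Across the members, a TCF/LEF match was found in 3 of the 31 windows (Axin2, Nkd1 and Tcf7), or 9.68%, against 9.39% of all 33469 windows and 5.97% of the 10500 windows of tested genes. A GC box was found in 64.5% of member windows, against 62.2% in tested genes and 33.1% overall. The AP-1 motif was found in 3.23% of member windows (Lef1 alone), against 4.95% in tested genes and 7.33% overall. The TATA box was found in 3.23% of member windows (Ryk alone), against 6.99% in tested genes and 14.2% overall. CpG dinucleotides were at more than 0.6 of the expected number in 80.6% of member windows, 71.4% of tested-gene windows and 34.3% of all windows. A match describes letters only, and none of these shares was tested.

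Libraries held 31994838 to 40124813 counts. Sirt6 itself was at 56.4, 54.3, 52.5 and 47.6 CPM (counts scaled to a common library size, after trimmed-mean normalization) in S1 to S4, and at 21.8, 21.0, 19.2 and 20.6 in S5 to S8. Its log2 fold change, here and below Sirt6-KD over Sirt6-Ctrl, was -1.35 (SE 0.13, edgeR adjusted p = 0.000713). Synthetic spike-in RNA took 6.27% of the counts in S1 and 9.8% in S2, against 2.97% to 3.08% in S3 and S4 and 2.15% to 2.47% in Sirt6-KD. S1 and S2 thus stood apart, and results are given also without them. Of 14 NP marker genes, 8 had a row, with a summed level of 117 to 172 CPM in Sirt6-Ctrl and 123 to 153 in Sirt6-KD. Within this sum, Cd24 averaged 37.9 CPM in Sirt6-Ctrl and 19.3 in Sirt6-KD, while Cdh2 averaged 56.6 and 81.7. Neither was called (edgeR adjusted p = 0.0537 and 0.237), though DESeq2 called Cd24 lower (adjusted p = 0.0211). Krt8 and Car3 were called lower, and Krt18, Krt19, T, Shh, Noto and Col2a1 had no row by that name and were not analysed here. Fibroblast markers summed to 13400 to 25400 CPM in Sirt6-Ctrl and 8000 to 17500 in Sirt6-KD (5 of 6 with a row, Scx called lower). Nearly all of this sum was Col1a1, at 13300 to 25200 CPM in Sirt6-Ctrl and 7960 to 17500 in Sirt6-KD, which was not called (edgeR adjusted p = 0.15). The lists for mural cells (149 to 259 against 158 to 235 CPM, 3 of 4 with a row), leukocytes (11.9 to 29.7 against 15.0 to 23.8, 3 of 7), chondrocytes of the endplate (0.0287 to 6.15 against 0.0299 to 0.704, 2 of 4) and endothelial cells (0 to 1.84 against 0.299 to 2.37, 2 of 6) held no called gene, and no red cell marker had a row. Whether these shifts had a part in the results for the members was not tested.

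A call required a fold change of more than 1.5 together with an adjusted p under 0.05, with p-values from edgeR's quasi-likelihood test adjusted over the whole table. Of the 39 tested members, 7 were called higher in Sirt6-KD, which is 17.9%, beside 8.02% of all genes tested. Another 4 were called lower, which is 10.3%, beside 10.7% of all genes. The share called lower was thus close to the background. Wnt5a, Porcn, Lrp5, Rspo1, Apc, Dvl2 and Dvl3 rose, and Wnt11, Dkk3, Dkk4 and Sfrp4 fell. The 39 log2 fold changes had a median of 0.11, with 22 above and 17 below 0. In 11 members, or 28.2%, the 4 libraries of each group did not overlap, against 30.4% of all genes tested.

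**Figure D1:**
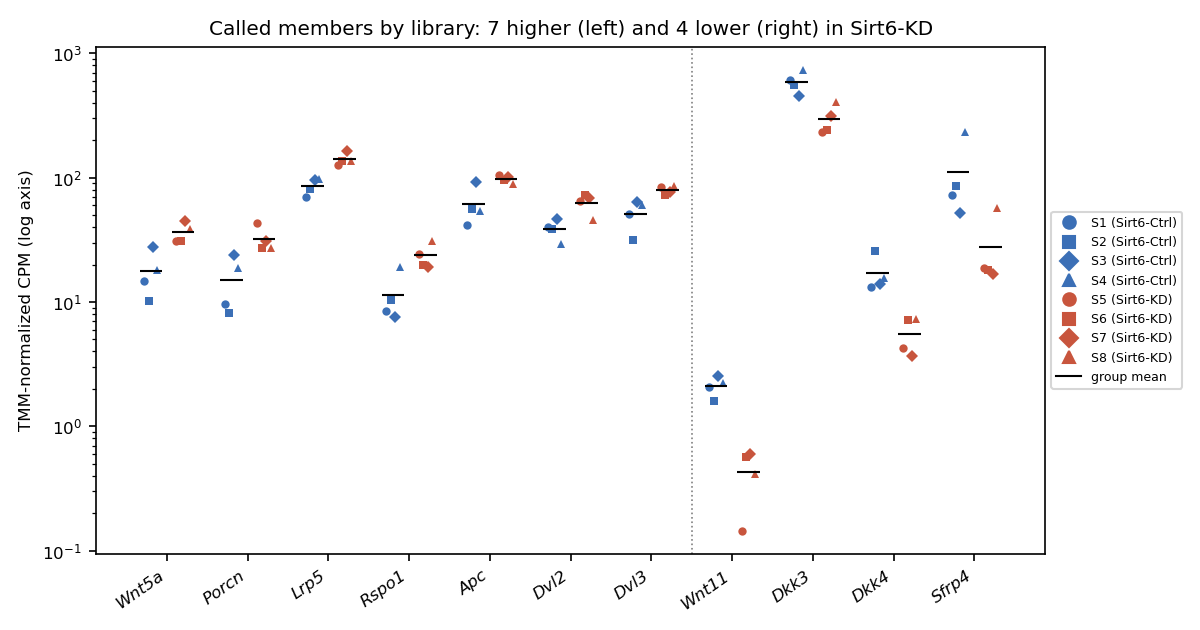
Trimmed-mean-normalized CPM (log axis) of the 11 called members in each library; blue marks are Sirt6-Ctrl (S1 to S4), red marks are Sirt6-KD (S5 to S8), and black bars are group means. The groups overlap in Apc, Dvl2 and Sfrp4 and in none of the other 8 genes.

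Without S1 and S2, only Tcf7l2 was called higher and the same 4 members, Wnt11, Dkk3, Dkk4 and Sfrp4, were called lower, of 40 members tested. The background of that fit was 5.71% called higher and 5.0% called lower. Of the 7 members called higher with all libraries, Lrp5 alone kept an adjusted p below 0.05 (edgeR, 0.0288), with a log2 fold change of 0.55 that is under the fold minimum. DESeq2, run on all 8 libraries, called 10 members higher and 5 lower, with 11.1% and 11.9% of all genes called in those directions. Scaling the libraries by their spike-ins moved the median of all genes to 0.94 on the log2 scale and left no member called, in a fit that called 0.151% of all genes higher and 0.0302% lower. Every direction given here is therefore relative to the bulk of genes.

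**Figure D2:**
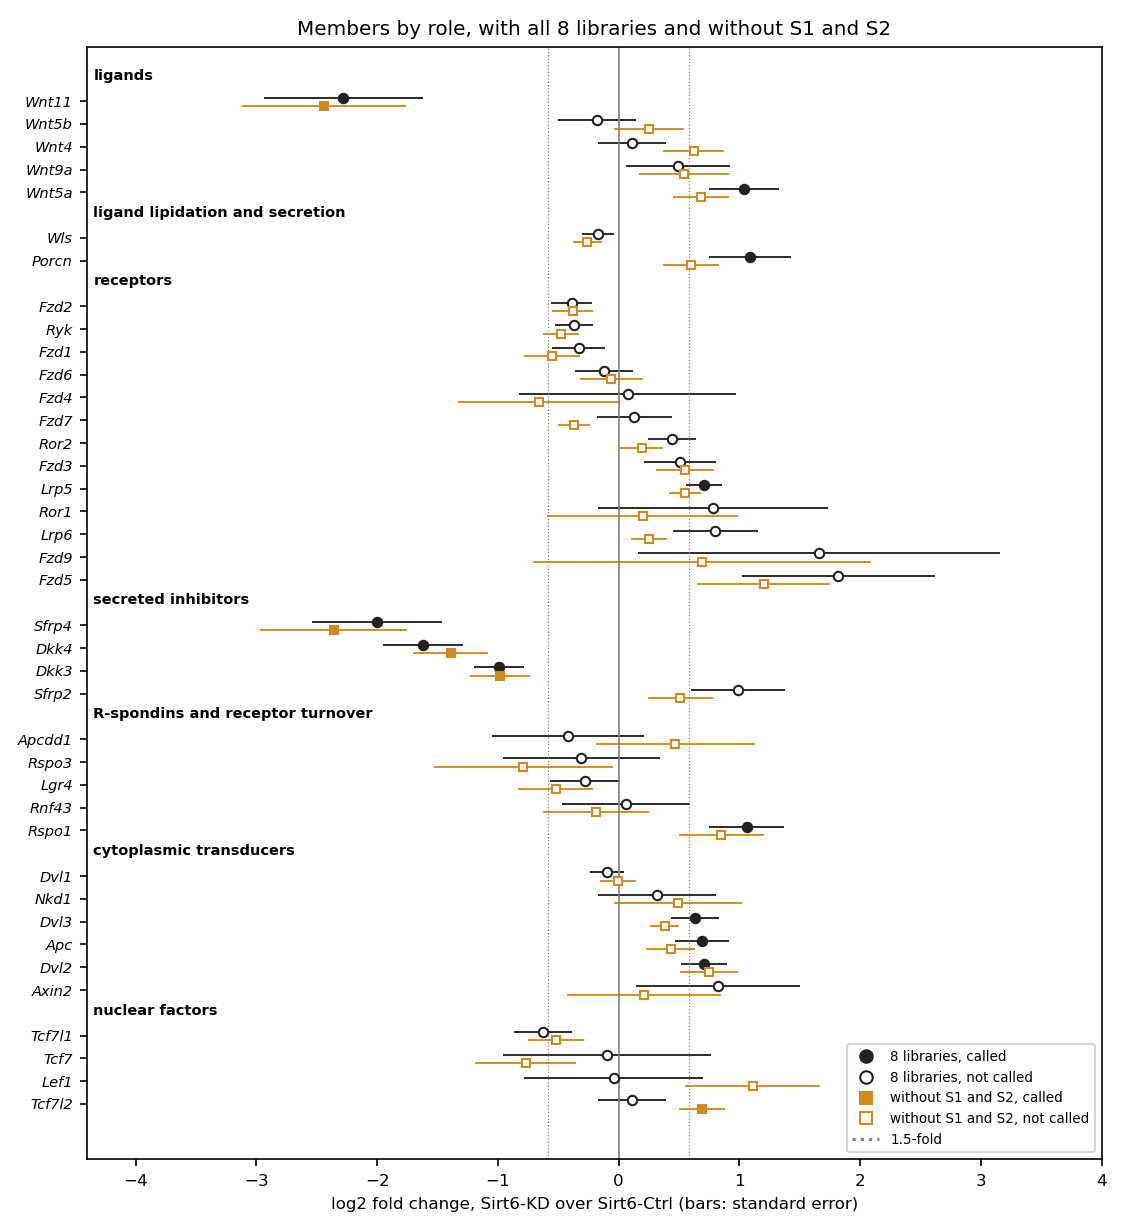
Log2 fold change with its standard error (x axis) of the 39 tested members, grouped by role (y axis), with all 8 libraries (black circles) and without S1 and S2 (orange squares); filled marks are called and dotted lines mark a 1.5-fold change. Wnt11, Sfrp4, Dkk4 and Dkk3 are filled in both fits, while none of the 7 members called higher with 8 libraries is filled without S1 and S2.

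Of the 5 tested Wnt ligands, 1 rose (beside 8.02% of all genes) and 1 fell (beside 10.7%). Wnt5a, a ligand best known for β-catenin-independent signaling through Ror2, was at 14.7, 10.2, 27.8 and 18.1 CPM in S1 to S4 and at 31.2, 31.1, 44.8 and 38.6 in S5 to S8. The groups did not overlap, although S3 came close to the lowest Sirt6-KD libraries. The mean rose from 17.7 ± 7.49 to 36.5 ± 6.6 CPM (SD, n = 4), with a log2 fold change of 1.04 (SE 0.29, edgeR adjusted p = 0.0273). The call was lost when S1, S5, S6, S7 or S8 was left out (log2 fold change 0.86 to 1.34 over all single omissions, highest edgeR adjusted p = 0.0857), and without S1 and S2 together the value was 0.68 (edgeR adjusted p = 0.0808).

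Wnt11, another ligand of the β-catenin-independent branches, was at 2.07, 1.61, 2.53 and 2.21 CPM in Sirt6-Ctrl and at 0.145, 0.567, 0.6 and 0.414 CPM in Sirt6-KD. These levels came from 52 to 91 reads per control library and 5 to 23 reads per knockdown library, and each control library lay above each knockdown library. On the log2 scale, the fold change was -2.28 (SE 0.66, edgeR adjusted p = 0.0343). The call held without S1 and S2 together (-2.44, edgeR adjusted p = 0.0488). It was lost on omission of any single library but S2 (-2.48 to -1.99, highest edgeR adjusted p = 0.096), and also with no filter on low counts (-2.24, edgeR adjusted p = 0.0655).

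The remaining ligands, Wnt4, Wnt5b and Wnt9a, were not called, with log2 fold changes of 0.11, -0.18 and 0.49 and standard errors of 0.28, 0.32 and 0.43. Wnt10b, a ligand that acts through β-catenin, had 1, 0, 1 and 0 reads in S1 to S4 and 0, 60, 18 and 3 in S5 to S8. Its reads thus lay almost wholly in S6 and S7. It did not pass edgeR's filter on low counts and was called higher by DESeq2 (adjusted p = 0.0241).

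Porcn and Wls act before the ligand leaves the cell. Porcn, the acyltransferase that attaches the lipid Wnts need for secretion and receptor binding, was at 9.68, 8.2, 23.8 and 18.9 CPM in Sirt6-Ctrl and at 43.2, 27.0, 31.2 and 27.0 in Sirt6-KD. All knockdown libraries lay above all controls, with S1 and S2 far below the other controls. Its log2 fold change was 1.09 (SE 0.34, edgeR adjusted p = 0.0429), and 0.6 without S1 and S2 (edgeR adjusted p = 0.11). With single libraries left out the value ranged from 0.89 to 1.39, and the call held without S3 or S4 only (highest edgeR adjusted p = 0.129). Wls, the carrier that brings lipid-modified Wnts to the surface, was at 272 ± 28.9 CPM in Sirt6-Ctrl and 241 ± 20.5 in Sirt6-KD (log2 fold change -0.17, SE 0.13, edgeR adjusted p = 0.36).

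Among the 13 receptors and co-receptors, 1 rose (7.69%, beside 8.02% of all genes) and none fell (beside 10.7%). None of the 8 Frizzled genes was called in either direction. Lrp5, a co-receptor of the β-catenin branch, was at 69.6, 81.2, 96.4 and 97.9 CPM in S1 to S4 and at 127, 136, 164 and 137 in S5 to S8. The groups were separated, with S1 and S2 the lowest controls. The corresponding log2 fold change was 0.71 (SE 0.15, edgeR adjusted p = 0.0103), and the call held in each of the 8 fits that left out a single library (0.63 to 0.77), but not without S1 and S2 together, as given above.

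Its close relative Lrp6 was at 34.7, 27.5, 86.4 and 85.6 CPM in Sirt6-Ctrl and at 85.5, 91.7, 114 and 116 in Sirt6-KD. S3 and S4 reached the level of S5, whereas S1 and S2 were well under every other library. The log2 fold change of Lrp6 was 0.8 (SE 0.35, edgeR adjusted p = 0.122) with all libraries and 0.25 without S1 and S2 (edgeR adjusted p = 0.295). Whether the changes of Lrp5 and Lrp6 differ was not tested.

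In the Frizzled family, the 8 log2 fold changes ran from -0.39 to 1.82 with a median of 0.1. Fzd2 was at 23.6, 30.3, 24.9 and 29.1 CPM in Sirt6-Ctrl and at 19.4, 22.2, 17.6 and 23.1 in Sirt6-KD, and its groups did not overlap. Its log2 fold change of -0.39 (SE 0.17) did not pass (edgeR adjusted p = 0.121), and it turned to 0.58 when scaled by spike-ins, which is -0.37 relative to the median gene.

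Fzd5 was at 1.26, 0.0928, 3.86 and 0.8 CPM in Sirt6-Ctrl and at 6.05, 5.41, 4.87 and 4.91 in Sirt6-KD. The knockdown libraries were close together and above all controls, while the controls ranged from 3 to 131 reads. On the log2 scale, the fold change was 1.82 (SE 0.8, edgeR adjusted p = 0.124), and DESeq2 gave an adjusted p of 0.0499. Without S3 it was called by edgeR (lowest adjusted p = 0.0181, log2 fold change 1.44 to 2.87 over single omissions). No other single omission gave a call (highest edgeR adjusted p = 0.233), and without S1 and S2 the value was 1.2 (edgeR adjusted p = 0.176).

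Fzd1, Fzd3, Fzd4, Fzd6, Fzd7 and Fzd9 overlapped between the groups. Fzd7 was at 24.6 and 22.9 CPM in S1 and S2, at 61.7 and 55.2 in S3 and S4, and at 42.6 to 50.5 in Sirt6-KD, so that the knockdown libraries lay between the 2 pairs of controls. Fzd9 had no read in S1, S2 or S4 and 10 to 19 reads in each Sirt6-KD library, but S3 held 20. Among the receptors that act beside Frizzled, Ror2, the tyrosine kinase-like receptor for Wnt5a, had a log2 fold change of 0.44 (SE 0.2, edgeR adjusted p = 0.128). Ryk, an atypical Wnt receptor, had -0.37 (SE 0.16, edgeR adjusted p = 0.113), and Ror1 had 0.78 (SE 0.95, edgeR adjusted p = 0.598).

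Of the 4 secreted inhibitors, 3 fell (75.0%, beside 10.7% of all genes) and none rose (beside 8.02%). All 3 were also called without S1 and S2, where 5.0% of all genes were called lower. Dkk3, a divergent Dkk protein whose action on Lrp5 and Lrp6 is less clear than that of its relatives, was at 614, 558, 457 and 733 CPM in S1 to S4 and at 232, 243, 312 and 405 in S5 to S8. The groups were separated, with S4 and S8 the highest of each. The corresponding log2 fold change was -0.99 (SE 0.21, edgeR adjusted p = 0.011), and it was called in each of the 8 fits with a library left out (-1.13 to -0.87). Scaled by spike-ins, the value was -0.023, or -0.97 relative to the median gene.

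Dkk4, which blocks Lrp5 and Lrp6, was at 13.3, 25.9, 13.9 and 15.6 CPM in Sirt6-Ctrl and at 4.25, 7.11, 3.68 and 7.25 in Sirt6-KD. Every knockdown library was below every control library. The log2 fold change was -1.62 (SE 0.33, edgeR adjusted p = 0.0095), -1.39 without S1 and S2 (edgeR adjusted p = 0.0227), and called in each of the 8 fits with a library left out.

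Sfrp4, a decoy that binds Wnts, was at 72.0, 85.0, 51.9 and 234 CPM in Sirt6-Ctrl and at 18.6, 18.0, 16.8 and 57.3 in Sirt6-KD. S4 and S8 stood well above the rest of their groups, and S8 was higher than S3. On the log2 scale, the fold change was -2.0 (SE 0.54, edgeR adjusted p = 0.0254). The call was lost without S4, S5, S6 or S7 (-2.61 to -1.33 over single omissions, highest edgeR adjusted p = 0.0804) and held without S1 and S2 (-2.36, edgeR adjusted p = 0.0388).

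The remaining inhibitor, Sfrp2, also a Wnt-binding decoy, was at 5.8, 3.03, 7.12 and 13.4 CPM in Sirt6-Ctrl and at 15.4, 16.4, 14.1 and 12.3 in Sirt6-KD. S4 was above S8, and the other controls were lower than all knockdown libraries. Its log2 fold change was 0.99 (SE 0.39, edgeR adjusted p = 0.0941), with a DESeq2 adjusted p of 0.0462. With S4 left out it was called by edgeR (lowest adjusted p = 0.018), but in no other single omission (highest edgeR adjusted p = 0.204). Without S1 and S2 the value was 0.51 (edgeR adjusted p = 0.227).

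Of the 5 R-spondin and receptor turnover genes, 1 rose (beside 8.02% of all genes) and none fell (beside 10.7%). Rspo1, a secreted amplifier that protects Frizzled receptors from removal, was at 8.5, 10.4, 7.57 and 19.0 CPM in S1 to S4 and at 24.5, 19.9, 19.2 and 31.0 in S5 to S8. The groups were apart by little, since S4 nearly reached S7. The corresponding log2 fold change was 1.06 (SE 0.31, edgeR adjusted p = 0.0345), and 0.85 without S1 and S2 (edgeR adjusted p = 0.144). Over single omissions it ran from 0.91 to 1.42, and the call held without S4 only (highest edgeR adjusted p = 0.0942).

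Rspo3 was at 7.07, 9.68, 3.8 and 36.7 CPM in Sirt6-Ctrl and at 9.09, 7.2, 7.3 and 22.7 in Sirt6-KD, with S4 and S8 standing out in their groups (log2 fold change -0.31, SE 0.65, edgeR adjusted p = 0.771). Lgr4, the receptor for R-spondins, and Rnf43, the ubiquitin ligase that removes Frizzled receptors, had log2 fold changes of -0.28 (SE 0.29) and 0.058 (SE 0.53). Apcdd1, a membrane inhibitor, had -0.42 (SE 0.63). None of these was called.

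Of the 6 cytoplasmic transducers, 3 rose (beside 8.02% of all genes) and none fell (beside 10.7%). They do not act in 1 direction: Dvl2 and Dvl3 pass the signal on, whereas Apc is a scaffold of the complex that destroys β-catenin. Dvl2 was at 40.1, 38.8, 46.5 and 29.0 CPM in Sirt6-Ctrl and at 64.6, 72.8, 68.6 and 45.9 in Sirt6-KD, with S8 just under S3. Its log2 fold change was 0.71 (SE 0.19, edgeR adjusted p = 0.0256). The value was 0.75 without S1 and S2 (edgeR adjusted p = 0.0712), and the call was also lost without S1, S5, S6 or S7 alone (0.59 to 0.87).

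Dvl3 was at 50.9, 31.6, 63.4 and 59.7 CPM in Sirt6-Ctrl and at 83.6, 72.2, 75.9 and 86.1 in Sirt6-KD. The groups did not overlap. The log2 fold change was 0.63 (SE 0.2, edgeR adjusted p = 0.0483), 0.38 without S1 and S2 (edgeR adjusted p = 0.0772), and the call held only when S3 or S4 was the single library left out (0.47 to 0.74, highest edgeR adjusted p = 0.116). Dvl1, the remaining Dishevelled gene, had a log2 fold change of -0.099 (SE 0.14, edgeR adjusted p = 0.656).

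Apc was at 41.3, 55.4, 92.7 and 53.8 CPM in S1 to S4 and at 105, 95.5, 102 and 89.3 in S5 to S8. S3 was above S8, and the other controls were well below. On the log2 scale, the fold change was 0.69 (SE 0.22, edgeR adjusted p = 0.0475), with 0.43 without S1 and S2 (edgeR adjusted p = 0.188). The call held without S3 and was lost without any other single library (0.56 to 0.96, highest edgeR adjusted p = 0.117).

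Axin2, which feeds back on the pathway and whose promoter window held the TCF/LEF match printed above, was at 1.06, 3.09, 3.8 and 10.4 CPM in Sirt6-Ctrl and at 4.4, 3.38, 7.66 and 17.0 in Sirt6-KD. The groups overlapped widely, with S4 and S8 the highest of each. The corresponding log2 fold change was 0.82 (SE 0.68, edgeR adjusted p = 0.419), and 0.21 without S1 and S2 (SE 0.64, edgeR adjusted p = 0.866). Nkd1, an inhibitor of Dishevelled, had 0.32 (SE 0.49, edgeR adjusted p = 0.673).

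None of the 4 nuclear factors was called with all libraries, beside 8.02% of all genes called higher and 10.7% called lower. Tcf7l1, a Tcf factor that mostly represses, was at 16.7, 11.7, 10.6 and 14.3 CPM in Sirt6-Ctrl and at 7.61, 10.4, 7.66 and 8.76 in Sirt6-KD. The groups did not overlap, though S6 nearly met S3. The log2 fold change was -0.63 (SE 0.24, edgeR adjusted p = 0.0824), DESeq2 gave an adjusted p of 0.038, and spike-in scaling turned it to 0.35, which is -0.6 relative to the median gene.

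Tcf7l2 was at 25.3, 31.2, 12.6 and 16.0 CPM in S1 to S4 and at 26.8, 23.7, 20.6 and 20.5 in S5 to S8. S1 lay within and S2 above the range of the knockdown libraries, and S3 and S4 lay below it. On the log2 scale, the fold change was 0.11 (SE 0.28, edgeR adjusted p = 0.817), and without S1 and S2 it was 0.69 and called (edgeR adjusted p = 0.0456). Lef1 and Tcf7 had log2 fold changes of -0.042 (SE 0.74) and -0.096 (SE 0.86), with 25 to 156 and 2 to 175 reads in the controls.

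**Figure D3:**
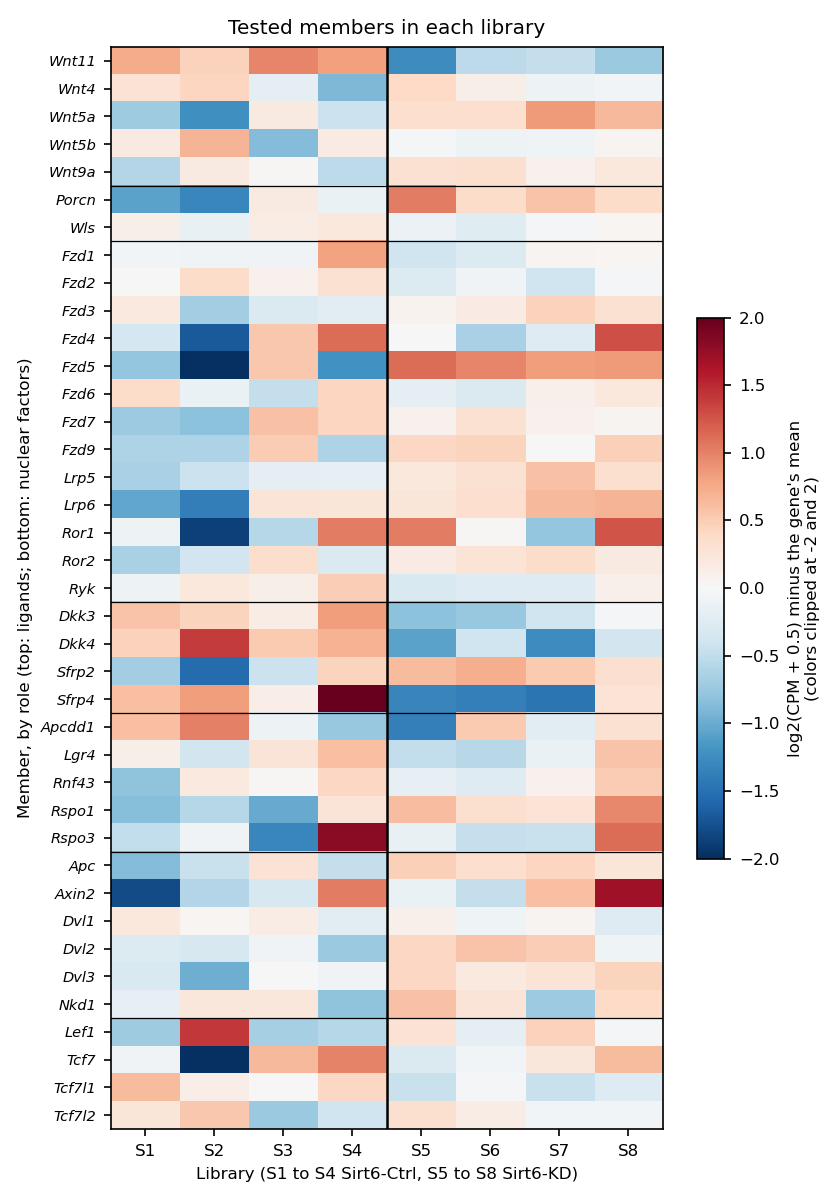
Log2(CPM + 0.5) of each tested member (rows, by role) in each library (columns; S1 to S4 Sirt6-Ctrl, S5 to S8 Sirt6-KD) minus the mean of that gene over the 8 libraries, with colors clipped at -2 and 2. S1 and S2 are blue where S3 and S4 are not in Lrp6 and Fzd7, and S4 and S8 are the reddest columns of their groups in Rspo3, Axin2 and Sfrp4.

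The members also varied within the groups in ways shared between genes. In 14 of the 39 members, or 35.9%, S1 and S2 were both lower than S3 and S4, against 23.7% of all genes tested, and 4 of the 7 members called higher were among them. The reverse, with S1 and S2 both above S3 and S4, was found in 4 members, or 10.3%, against 25.0% of all genes. In 13 members, or 33.3%, S4 was the highest control and S8 the highest knockdown library, against 10.6% of all genes. These were Axin2, Dkk3, Fzd4, Fzd6, Lgr4, Rnf43, Ror1, Rspo1, Rspo3, Ryk, Sfrp4, Tcf7 and Wls. The SD relative to the mean was larger in Sirt6-Ctrl than in Sirt6-KD in 84.6% of members and 85.6% of all genes. None of these shares was tested, and the labels do not say whether S4 and S8 came from the same rat.

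The rest of the pathway was read from 5 lists with 103 rows that are no members, of which 100 were tested. In Sirt6-KD 15 of them were called higher (15.0%, beside 8.02% of all genes) and 7 lower (7.0%, beside 10.7%), with a median log2 fold change of 0.18. Without S1 and S2, 6 of 101 were called higher and 6 lower, close to the 5.71% and 5.0% of all genes in that fit. β-catenin itself (Ctnnb1) was at 190, 199, 223 and 270 CPM in Sirt6-Ctrl and at 219, 227, 232 and 248 in Sirt6-KD. All knockdown libraries lay within the range of the controls, and the log2 fold change was 0.07 (SE 0.14, edgeR adjusted p = 0.749), turning to -0.078 without S1 and S2.

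**Figure D4:**
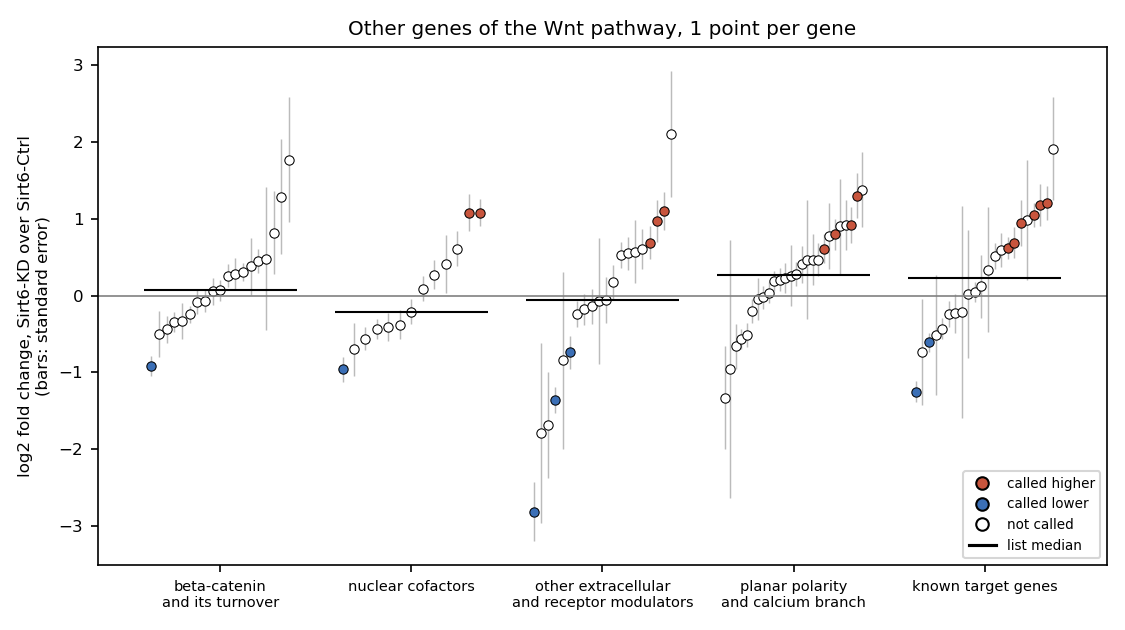
Log2 fold change with its standard error (y axis) of the 100 tested genes of the Wnt pathway that are no members, by list (x axis), sorted within each list; red points were called higher, blue points lower, white points were not called, and bars are list medians. The list medians lie between -0.21 and 0.27, and the known target genes hold both red and blue points.

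Of 19 genes that act on β-catenin or its turnover, 1 fell (5.26%, beside 10.7% of all genes) and none rose (beside 8.02%). The called gene, Csnk1g2, a membrane-bound casein kinase of the Lrp6 signal, was at 238, 244, 176 and 215 CPM in Sirt6-Ctrl and at 111, 121, 109 and 125 in Sirt6-KD. The groups were far apart (log2 fold change -0.91, SE 0.13, edgeR adjusted p = 0.0033), although with spike-in scaling it was 0.12, or -0.82 relative to the median gene. Of 13 nuclear cofactors, 2 rose (15.4%, beside 8.02% of all genes) and 1 fell (7.69%, beside 10.7%). Bcl9l and Bcl9, adaptors that tie Pygo proteins to β-catenin, rose by log2 fold changes of 1.08 (SE 0.18, edgeR adjusted p = 0.00513) and 1.08 (SE 0.24, edgeR adjusted p = 0.0124). Pygo2, the partner of both, fell by 0.96 on the log2 scale (SE 0.16, edgeR adjusted p = 0.00514), or by 0.87 relative to the median gene under spike-in scaling, where its own value was 0.071. All 3 were also called without S1 and S2.

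Of 20 other extracellular and receptor modulators, 3 rose (15.0%, beside 8.02% of all genes) and 3 fell (15.0%, beside 10.7%). Cthrc1, a secreted glycoprotein that favors Wnt binding in the planar polarity branch, was at 29.4, 38.5, 16.7 and 26.2 CPM in Sirt6-Ctrl and at 1.91, 3.55, 3.68 and 6.63 in Sirt6-KD. The lowest control was above the highest knockdown library, and the log2 fold change was -2.81 (SE 0.39, edgeR adjusted p = 0.0027). Igfbp4, a binding protein for insulin-like growth factors, fell by 1.36 on the log2 scale (SE 0.17, edgeR adjusted p = 0.00173), and the Wnt-binding inhibitor Wif1 was also called lower. Frzb, also a secreted inhibitor, went the other way from Wif1 and was not called (0.57, SE 0.41, edgeR adjusted p = 0.343). Without S1 and S2 it was at 1.01 (edgeR adjusted p = 0.0703). Adgra2, a co-receptor for some Wnts, rose by 1.1 (SE 0.25, edgeR adjusted p = 0.0142) and Gpc6, a heparan sulfate proteoglycan of the cell surface, by 0.97 (SE 0.27, edgeR adjusted p = 0.0269), and Usp6nl was called higher as well. The call of Gpc6 was lost without S1, S5, S6, S7 or S8 (0.8 to 1.25). Without S1 and S2 together, Cthrc1, Igfbp4 and Adgra2 were still called, whereas Gpc6 (0.65, edgeR adjusted p = 0.0751), Usp6nl (0.44, edgeR adjusted p = 0.0676) and Wif1 (-0.55, edgeR adjusted p = 0.14) were not, and Gpc3, which the full fit did not test, was called lower.

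Of 26 genes of the planar polarity and calcium branch, 4 were called higher (15.4%, beside 8.02% of all genes) and none lower (beside 10.7%). None of the 4 was called without S1 and S2. Rhoa (log2 fold change -0.56, edgeR adjusted p = 0.0166) and Rock1 (-0.51, edgeR adjusted p = 0.0472) were lower, with groups that did not overlap, but under the fold minimum. Without S1 and S2 they were at -0.43 (edgeR adjusted p = 0.0467) and -0.28 (edgeR adjusted p = 0.208). Prickle1, a planar polarity protein, had a log2 fold change of 1.3 (SE 0.29, edgeR adjusted p = 0.0127), and 1.06 without S1 and S2 (edgeR adjusted p = 0.0632). Nfat5, which is better known for the response to osmotic stress than for calcium signaling, had 0.8 (SE 0.2, edgeR adjusted p = 0.0187), and lost its call without S1, S6 or S7 (0.72 to 1.02). Mapk8 and Camk2d were also called higher.

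Of 22 genes known as Wnt targets in other cells, 6 rose (27.3%, beside 8.02% of all genes) and 2 fell (9.09%, beside 10.7%). Fosl1, an AP-1 subunit, was at 40.0, 56.1, 69.1 and 34.3 CPM in Sirt6-Ctrl and at 136, 111, 115 and 101 in Sirt6-KD (log2 fold change 1.21, SE 0.22, edgeR adjusted p = 0.00604). Plaur, the urokinase receptor, was at 13.4, 14.1, 16.2 and 17.5 CPM in Sirt6-Ctrl and at 35.5, 31.1, 29.4 and 30.8 in Sirt6-KD (1.05, SE 0.16, edgeR adjusted p = 0.00416). The groups were well separated in both genes. Jun, another AP-1 subunit, was at 321, 228, 220 and 233 CPM in Sirt6-Ctrl and at 103, 104, 113 and 102 in Sirt6-KD (-1.25, SE 0.14, edgeR adjusted p = 0.00143). Id2, a repressor of basic helix-loop-helix factors, had -0.61 (SE 0.12, edgeR adjusted p = 0.0101), close to the fold minimum. It fell under that minimum without S2 or S8 (-0.66 to -0.5 over single omissions), without S1 and S2 (-0.47), under either other count filter (-0.57) and without the spike-in rows (-0.58), and turned to 0.42 under spike-in scaling (-0.52 relative to the median gene). Cd44, Enc1, Myc and Vegfa were the others called higher. Without S1 and S2, these 4 were not called, with Cd44 at 0.57 and under the fold minimum and edgeR adjusted p-values of 0.0677 for Enc1, 0.0897 for Myc and 0.108 for Vegfa. Fosl1, Plaur and Jun were still called in that fit, and Wisp1 was newly called higher (1.14, edgeR adjusted p = 0.0122). These targets respond to many other signals as well.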

How the data were processed

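RNA from Sirt6-Ctrl and Sirt6-KD cells (RIN above the study's minimum) was sequenced by a service provider. The submitters' processing notes name Trimmomatic 0.36, STAR 2.5.2b, featureCounts of Subread 1.5.2, DESeq2 and the build Rnor_6.0, and strand and multi-mapping settings are not given in the sources used here, so reads of overlapping or antisense genes and close paralogs may be shared. The authors deposited raw counts per gene. They also deposited a comparison table of rows whose counts sum to more than 80, with the normalized signal of each library, a log2 fold change and p-values. Only its gene names were used here, and the fold changes and p-values, which hold the authors' own findings, were not.

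Counts were filtered (filterByExpr, 13313 rows left, 63 of them spike-ins), normalized by TMM and tested, unpaired and two-sided, with glmQLFit and glmQLFTest of edgeR 4.0.16 in R 4.3.3, with Benjamini-Hochberg adjustment over all rows. The SE is the absolute log2 fold change over the root of F. Alternatives were DESeq2 1.42.0, limma-voom (limma 3.58.1), other filters and scalings, no fold minimum, and libraries left out. Only the main edgeR fit was run on simulated data. There all libraries shared a mean profile apart from the changes set, so the simulation does not cover S1 and S2 standing apart. At 31994838 to 40124813 counts per library, 3 counts correspond to 0.0748 to 0.0938 CPM, for counting error only. The series describes cells from 4 rats, but the labels do not tie a library to a rat, so p-values measure the spread between these libraries. Named were Sirt6, each called member, members with separated groups or a call that differed between edgeR and DESeq2, Ctnnb1, and up to 2 called genes per direction and list with the smallest p. Other names were chosen after their values were seen. Members and lists were chosen with earlier results of these data known.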

Additional observations from a re-analysis of the deposited data

Results flagged for a closer look

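Within groups of 4 libraries, the gap of the highest or lowest library to its nearest neighbour, as a share of the range of the group, passed Dixon's critical value for 4 samples in 10 of 112 groups, where chance gives about 6 (1 in 20). In Sirt6-KD, S8 was the outlying highest library for Sfrp4 (0.955), Rspo3 (0.878) and Ryk (0.877), S6 for Fzd7 (0.877), and S7 for Jun (0.833), while S7 was the outlying lowest for Fzd9 (0.863). In Sirt6-Ctrl, S4 was outlying for Fzd1 (0.983), S2 for Lef1 (0.968) and S1 for Jun (0.865). Fzd9 was read in S3 alone among the controls (1.0). The causes of these gaps were not tested.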

How the results depend on the processing

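Of the members called with all libraries, Lrp5, Dkk3 and Dkk4 were called in each of the 8 fits with a library left out. In these fits 1 to 10 members were called higher and 2 to 4 lower, and other Wnt pathway genes numbered 7 to 24 higher and 5 to 11 lower. Of all genes, 3.28% to 12.5% were called higher and 5.15% to 14.1% lower in the same fits. The log2 fold change of Sirt6 ran from -1.40 to -1.29, and that of Tcf7l2 from -0.079 to 0.36. The fewest members higher (1) were found without S1, S5, S6 or S7, where 3.28% to 4.06% of all genes were called higher, and the most (10) without S3, where 12.5% were. Without S1 and S2 together, 1 member and 6 other genes were called higher, and Ctnnb1 turned to -0.078. With spike-in scaling, 0 members were called higher and 0 lower, with 0 and 0 other genes, among 20 genes higher and 4 lower in the whole table. Sirt6 was at -0.36 (edgeR adjusted p = 0.567, or -1.31 relative to the median gene). Tcf7l1 (0.35), Fzd2 (0.58), Csnk1g2 (0.12), Pygo2 (0.071) and Id2 (0.42) turned positive. Without a fold minimum, 11 other genes were called lower, with Rhoa, Rock1, Smarca4 and Ctbp1 newly among them. Of the 31 named genes other than Sirt6 and Wnt10b, RLE normalization kept the side of the threshold of all, limma-voom of 29 and DESeq2 of 28, with 2 and 3 newly called, and DESeq2 also called Wnt10b. Wnt11 and Id2 lost their calls with no filter on low counts. The cause was not tested where calls changed, and the fits that leave libraries out also hold fewer of them. No paired analysis was possible because the labels and columns do not tie a control library to a knockdown library. Wnt10b, Fzd9, Wnt11, Tcf7, Fzd5, Fzd4 and Ror1 each had at least 1 library with 5 reads or fewer, which limits their precision.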
